A study of Mus musculus with 6 samples.

Results

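The genes described here were 40 genes of glycolysis and of the response to hypoxia-inducible factor (HIF), picked by exact symbol: 17 glycolytic enzymes, 4 glucose and lactate transporters, 3 regulators of glycolysis, 3 HIF subunits, 2 HIF prolyl hydroxylases, and 11 other HIF targets. All 40 were among the 26167 genes of the expression table. All 40 also passed the minimum for testing, which was 10 reads in at least 3 tumors and left 16513 genes, and the lowest read count of any of them in any tumor was 61. The study injected Hep1-6 cells (written Hepa1-6 in its text), a mouse hepatoma line, under the skin of female C57BL/6J mice obtained at 6 to 8 weeks of age, and sequenced RNA from the tumors. The Sora-treated mice received 10 mg/kg sorafenib (Sora), an inhibitor of Raf kinases and of the VEGF and PDGF receptors, in intraperitoneal injections on day 9, day 11, day 13, and day 15 after the cells, and the labels call the other group control without naming an injection. Control tumors 1, 3, and 4 were compared with Sora-treated tumors 2, 3, and 4, numbered as in the labels, and values below are given in that order. The tumors had 31073830 to 36205814 reads counted on genes. The counts of Sora-treated tumor 4 were recovered from its length-normalized values, so each value of that tumor rests on this step, and a fit on the other 5 tumors is given beside the main results. No source ties a tumor to a mouse, so p-values measure the spread between these tumors.

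Glycolysis turns glucose into pyruvate in the cytosol, and lactate dehydrogenase and the monocarboxylate transporters then dispose of pyruvate as lactate. HIF is a pair of proteins, an alpha subunit (HIF-1α from Hif1a or HIF-2α from Epas1) and a beta subunit from Arnt. In oxygen, prolyl hydroxylases mark the alpha subunit for destruction by the VHL complex. In hypoxia it persists and activates genes for glucose uptake, glycolysis, acid export, and blood vessel growth. Because the alpha subunit is controlled as a protein, its RNA is not a measure of HIF activity. Hepatoma cells commonly use M-type pyruvate kinase in place of the liver form.

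HIF binds DNA at a short core sequence, and the promoters of the members were searched for its letters, ACGTG and GCGTG, on both strands (CACGT and CACGC on the printed strand). The sequences are the 250 bases before the start of transcription in the RefSeq table of GRCm38.p6. Of the 40 genes, 36 had an entry, and 32 of the 36 (88.9%) held at least 1 match. The share was 41.5% among the 27025 genes of the table and 56.9% among the 12734 of them that were tested here, and no test of these shares was run. Slc2a1, Hk1, and P4ha2 are shown because their RNA rose, and Pgk1 and Ldha because they are standard HIF target genes. They are written 5′ to 3′ on the strand of the gene with matches in capitals. For Hk1 and Ldha, which have more than 1 start in the table, the start with more matches is shown.
Slc2a1, chr4:119108495-119108744, plus strand: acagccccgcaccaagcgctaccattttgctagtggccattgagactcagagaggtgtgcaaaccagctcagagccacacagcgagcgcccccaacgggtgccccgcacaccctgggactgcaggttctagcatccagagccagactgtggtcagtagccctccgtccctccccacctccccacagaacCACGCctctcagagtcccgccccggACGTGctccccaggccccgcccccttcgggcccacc
Hk1, chr10:62340422-62340671, minus strand: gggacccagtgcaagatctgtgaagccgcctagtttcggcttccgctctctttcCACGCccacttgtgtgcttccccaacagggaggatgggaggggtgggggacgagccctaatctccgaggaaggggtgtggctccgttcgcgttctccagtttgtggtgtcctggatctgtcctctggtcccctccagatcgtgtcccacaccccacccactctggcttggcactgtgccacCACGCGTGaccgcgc
P4ha2, chr11:54100674-54100923, plus strand: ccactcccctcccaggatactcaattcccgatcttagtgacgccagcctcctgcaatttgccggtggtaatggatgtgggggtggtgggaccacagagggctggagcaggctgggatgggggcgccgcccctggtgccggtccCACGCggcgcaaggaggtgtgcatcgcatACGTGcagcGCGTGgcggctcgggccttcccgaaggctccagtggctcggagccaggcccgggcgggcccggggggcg
Pgk1, chrX:106186850-106187099, plus strand: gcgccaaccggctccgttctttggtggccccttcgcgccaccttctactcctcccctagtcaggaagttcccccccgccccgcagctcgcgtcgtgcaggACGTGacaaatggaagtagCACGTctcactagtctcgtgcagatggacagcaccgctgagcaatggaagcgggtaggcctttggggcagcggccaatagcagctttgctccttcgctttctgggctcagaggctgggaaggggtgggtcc
Ldha, chr7:46845554-46845803, plus strand: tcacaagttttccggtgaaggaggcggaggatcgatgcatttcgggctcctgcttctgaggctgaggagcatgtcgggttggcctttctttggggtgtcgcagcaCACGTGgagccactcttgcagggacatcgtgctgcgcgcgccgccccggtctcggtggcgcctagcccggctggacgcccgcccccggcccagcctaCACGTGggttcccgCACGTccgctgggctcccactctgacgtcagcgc
The matches of Slc2a1 begin 61 and 36 bases before its start, those of P4ha2 begin 107, 78, and 69 bases before, and those of Pgk1 begin 150 and 131 bases before. Ldha has the palindrome CACGTG at 145 and 48 bases, which reads as a match on both strands, and another match at 34 bases. In Hk1 a match begins at 196 bases, and the matches at 15 and 12 bases overlap each other. The other start of Hk1 in the table (chr10:62379909-62380158, minus strand) had no match, nor did the promoters of Gpi1, Tpi1, Eno2, and Car12. Slc2a3, Epas1, Bnip3l, and Ndrg1 had no entry. A match describes the letters in this window and is not evidence that HIF binds there.

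Most of these genes had a higher mean level in the Sora-treated tumors, by small amounts. In an edgeR quasi-likelihood test over all 16513 genes, 4 of the 40 rose at an adjusted p under 0.05, namely Slc2a1, Hk1, Ndrg1, and P4ha2, and none fell. Of all genes tested, 1.94% were called higher and 1.34% lower, or 3.29% in either direction. At an unadjusted p under 0.05, 16 of the 40 were higher and 0 lower (8.53% and 8.69% of all genes), and DESeq2 called 9 higher and 0 lower (3.79% and 3.49%). Other settings gave fewer calls. Limma on length-normalized values (FPKM) called only Slc2a1 and P4ha2 with 1 added before the log (1.11% of all genes were called higher). With 0.1 added it called none (0.171%). The log2 fold change was above 0 for 37 of the 40 (49.9% of all genes), and its median was 0.24 for the 40 genes and -0.0004 for all genes. In 15 of the 40, the 3 Sora-treated tumors all lay above the 3 control tumors, and in 0 they all lay below (10.6% and 11.6% of all genes). The 40 genes together took 1.13% of reads in the lowest tumor and 1.501% in the highest. The calls depended on which tumors were in the fit. Without Sora-treated tumor 4, none of the 40 was called. Only 4 of 16319 genes were called higher in that fit (0.0245%), so it says little about the members. None of the 40 was called without control tumor 4 (0.717% of all genes were called higher) or without Sora-treated tumor 2 (0.509%). Without control tumor 1 only Car12 was called (0.705%). Without control tumor 3 there were 7 calls, which included Slc2a1, Ndrg1, and P4ha2 but not Hk1 (1.28%). The same 4 genes were called without Sora-treated tumor 3 (3.52%).

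**Figure D1:**
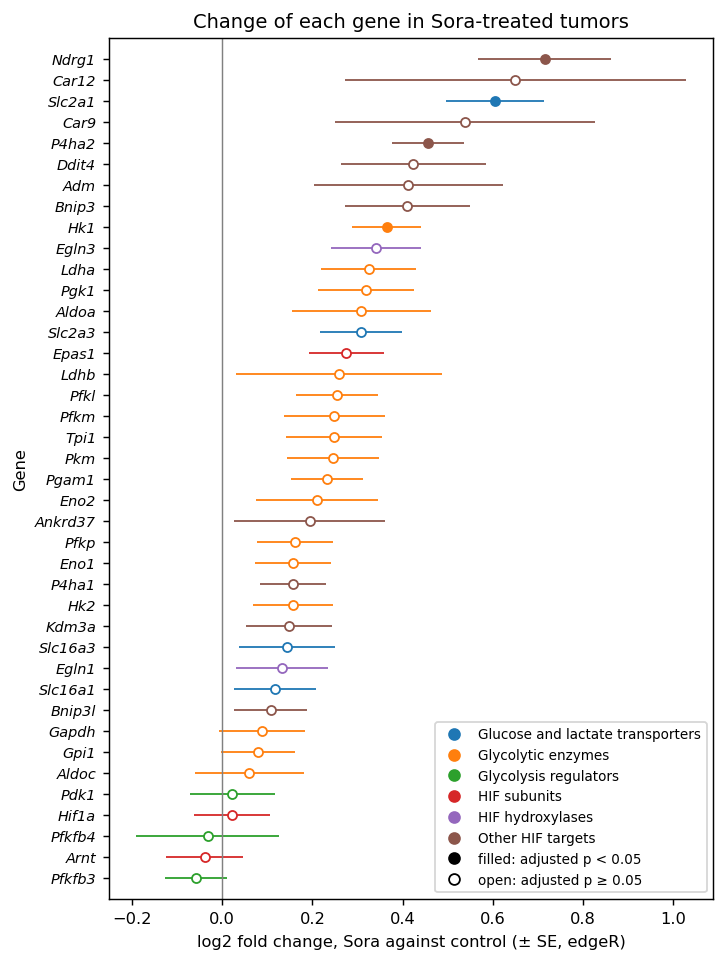
Log2 fold change (Sora-treated against control, x axis) of each of the 40 genes (y axis), with its standard error from edgeR, colored by role and filled where the adjusted p was under 0.05. The 4 filled genes are Ndrg1, Slc2a1, P4ha2, and Hk1, and only Pfkfb4, Arnt, and Pfkfb3 lie below 0.

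The tumors also differed within a group. Control tumor 1 was the lowest of the 6 for 28 of the 40 genes, and Sora-treated tumor 4 was the highest for 24, Sora-treated tumor 3 for 9, and control tumor 3 for 3. As the median over the 40 genes of the log2 difference from the mean of the controls, the controls stood at -0.11 (tumor 1), 0.15 (tumor 3), and -0.04 (tumor 4). The same median was 0.17, 0.23, and 0.25 for Sora-treated tumors 2, 3, and 4. Control tumor 3 thus lay closer to Sora-treated tumor 2 than to control tumor 1.

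**Figure D2:**
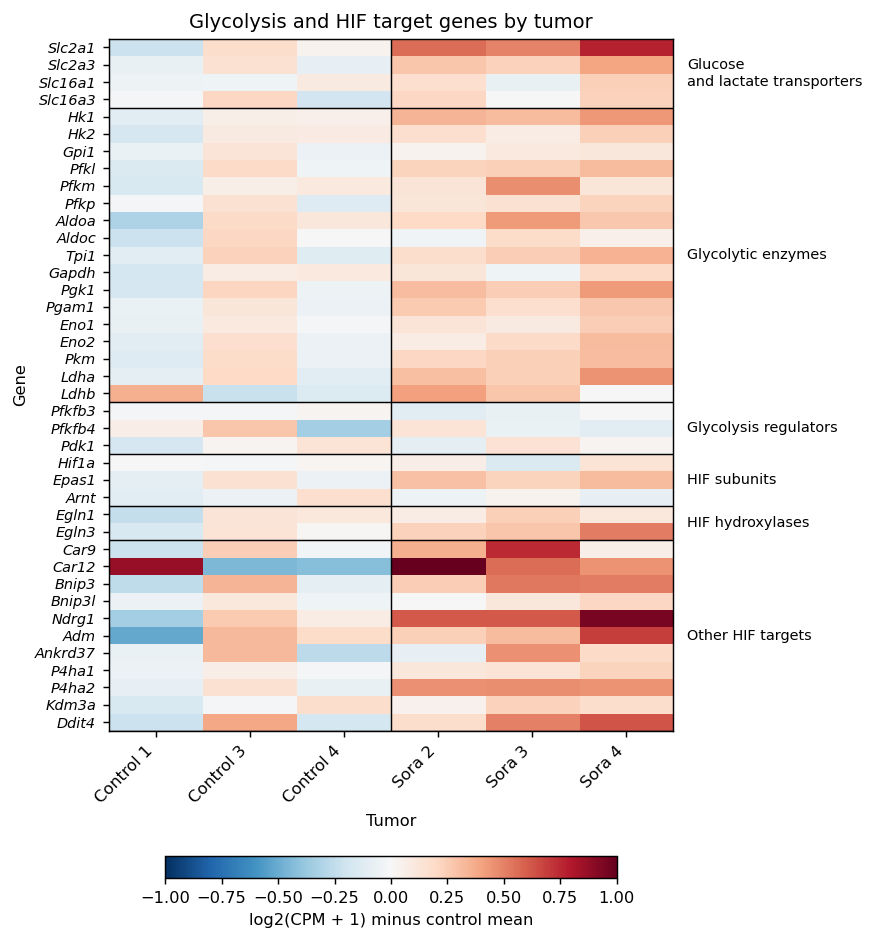
Log2(CPM + 1) minus the mean of the control tumors (color) for the 40 genes (rows, grouped by role) in each of the 6 tumors (columns). Most rows are red in the 3 Sora-treated tumors, most cells of control tumor 1 are blue, and control tumor 3 is mostly pale red. Colors end at -1 and 1.

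Among the transporters, Slc2a1, which encodes the basal glucose transporter GLUT1, rose, while the other 3 genes did not pass the test (1.94% of all genes were called higher). In CPM, the read count scaled to library size with TMM factors, Slc2a1 measured 218, 285, and 259 in the controls. After Sora it measured 372, 356, and 431 CPM, and the groups did not overlap. Its log2 fold change was 0.60 ± 0.11 (SE, n = 3 against 3; edgeR adjusted p = 0.019), a fold of 1.52. Leaving out 1 tumor at a time gave log2 fold changes of 0.51 to 0.70, with adjusted p-values of 0.011 to 0.10 in edgeR. Slc2a3, the gene of the high-affinity transporter GLUT3, had 32.2, 37.9, and 32.1 CPM in control and 41.4, 40.03, and 45.01 CPM in Sora-treated tumors, also without overlap, but its adjusted p was 0.10 (edgeR). The lactate exporter gene Slc16a3 (MCT4) had 69.3, 81.1, and 61.2 CPM in control and 80.8, 70.2, and 82.5 CPM in Sora-treated tumors, and the groups overlapped (log2 fold change 0.14 ± 0.11 SE, edgeR adjusted p = 0.55). Slc16a1 (MCT1) overlapped as well, with a log2 fold change of 0.12 ± 0.09 (SE).

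All 17 glycolytic enzyme genes had a log2 fold change above 0 with all 6 tumors, with a median of 0.25 and a range of 0.06 to 0.36, and this held under each other scaling of the libraries tried (49.9% of all genes were above 0). Only Hk1 was called (1.94% of all genes were called higher), and in 8 of the 17 the groups did not overlap, all higher (10.6%). Leaving out control tumor 1 or Sora-treated tumor 3 turned Aldoc, the lowest of the 17, below 0. Hk1 encodes hexokinase 1, which traps glucose in the cell by phosphorylation. It had 161, 181, and 179.7 CPM in control and 221, 217, and 234 CPM in Sora-treated tumors, and every Sora-treated tumor was above every control tumor. The log2 fold change was 0.36 ± 0.08 (SE, n = 3 against 3; edgeR adjusted p = 0.031), and leaving out 1 tumor at a time it was 0.31 to 0.39 with edgeR adjusted p-values of 0.023 to 0.15. Hk2, the gene of hexokinase 2, had 173, 207, and 206 CPM in control and 218, 204, and 230.2 CPM in Sora-treated tumors, so Sora-treated tumor 3 fell within the controls (log2 fold change 0.16 ± 0.09 SE, edgeR adjusted p = 0.41).

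The phosphofructokinase subunits carry out the committed step of the pathway. The liver-type subunit gene Pfkl had 219, 277, and 235 CPM in control and 284, 287, and 301 CPM in Sora-treated tumors. The muscle-type gene Pfkm had 31.1, 36.3, and 37.2 CPM in control and 38.1, 48.3, and 37.8 CPM in Sora-treated tumors. Neither pair of groups overlapped, though the lowest Sora-treated tumors were close to the highest control, and the edgeR adjusted p was 0.17 for Pfkl and 0.29 for Pfkm. Pfkp overlapped, with a log2 fold change of 0.16 ± 0.08 (SE).

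In the lower part of glycolysis, where ATP and lactate are made, Pgk1, Pgam1, Pkm, and Ldha had separate groups without passing the adjusted threshold. Pgk1, the gene of phosphoglycerate kinase, had 991, 1289.7, and 1075 CPM in control and 1379, 1317, and 1491 CPM in Sora-treated tumors (log2 fold change 0.32 ± 0.11 SE, edgeR adjusted p = 0.14). Control tumor 3 lay just below Sora-treated tumor 3, and the other controls were lower. Pgam1, the gene of a phosphoglycerate mutase, had 299, 341, and 301 CPM in control and 376, 352, and 378 CPM in Sora-treated tumors. Pkm, the gene of M-type pyruvate kinase, was the member with the most reads and had 2214, 2748, and 2315 CPM in control and 2786, 2847, and 2999 CPM in Sora-treated tumors. For both, control tumor 3 again was the control nearest to the Sora-treated tumors (edgeR adjusted p = 0.15 for Pgam1 and 0.24 for Pkm). Ldha, whose enzyme subunit favors the step from pyruvate to lactate, had 1098, 1351, and 1096 CPM in control and 1449, 1388, and 1603 CPM in Sora-treated tumors. Its log2 fold change was 0.32 ± 0.10 (SE, edgeR adjusted p = 0.13), and Sora-treated tumor 4 was the highest. By DESeq2, Pgk1 and Ldha were called (adjusted p = 0.021 and 0.015), and 3.79% of all genes were called higher by that tool.

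Aldoa, the gene of the aldolase that splits fructose bisphosphate, had 8.04, 11.8, and 11.1 CPM in control and 11.8, 14.03, and 12.5 CPM in Sora-treated tumors. The highest control and the lowest Sora-treated tumor were almost level, and the edgeR adjusted p was 0.35. Per length it averaged 5.59 ± 0.972 FPKM in the control tumors, below Aldoc at 7.24 ± 0.9302 FPKM (mean ± SD, n = 3). Aldoa and Gapdh (219.7, 262, and 267 CPM in control and 271, 242, and 284 CPM in Sora-treated tumors) have near-identical copies elsewhere in the genome, so their counts are uncertain. The same holds for Eno1, whose near copy Eno1b was listed with 406 to 510 reads, and whether shared reads were dropped or split was not tested. The other enzymes with overlapping groups, which also include Gpi1, Tpi1, Eno2, and Ldhb, had log2 fold changes of 0.06 (Aldoc) to 0.26 (Ldhb), and the adjusted p-values of the 36 members that were not called ran from 0.092 to 0.95 in edgeR.

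**Figure D3:**
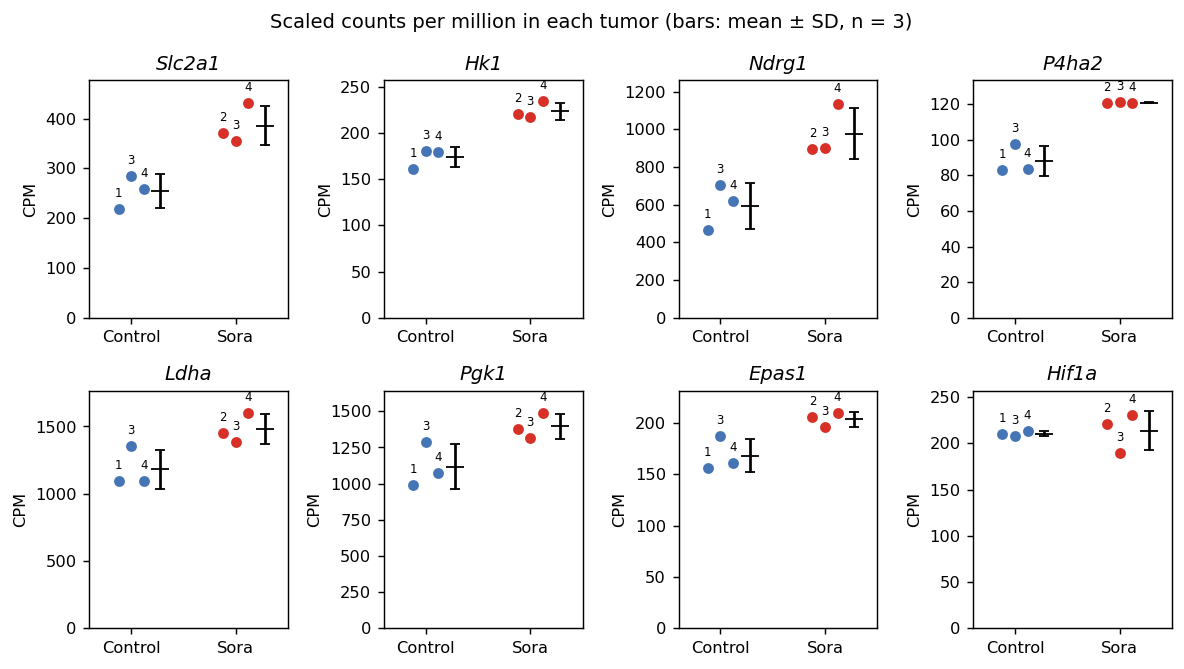
CPM after TMM scaling (y axis) of 8 genes in each control (blue) and Sora-treated (red) tumor, with tumor numbers over the points and bars for the mean ± SD (n = 3). Slc2a1, Hk1, Ndrg1, P4ha2, Ldha, Pgk1, and Epas1 show no overlap between groups, whereas the Hif1a points of the Sora-treated tumors lie on both sides of the controls.

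The 3 regulators of glycolysis had a median log2 fold change of -0.03, and none was called (1.94% of all genes were called higher and 1.34% lower). Pfkfb3, the gene of an enzyme that makes the activator of phosphofructokinase, had 56.4, 56.7, and 58.1 CPM in control and 52.9, 54.2, and 57.2 CPM in Sora-treated tumors and the lowest log2 fold change of the 40 genes, -0.06 ± 0.07 (SE, edgeR adjusted p = 0.74). Pfkfb4, of the same family, had 15.7, 18.3, and 11.6 CPM in control and 16.5, 14.2, and 13.8 CPM in Sora-treated tumors (log2 fold change -0.03 ± 0.16 SE). Pdk1, whose kinase turns off pyruvate dehydrogenase and is a standard HIF target, had a log2 fold change of 0.02 ± 0.09 (SE, edgeR adjusted p = 0.93). In all 3 genes the groups overlapped (10.6% of all genes were separate and higher and 11.6% separate and lower).

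Of the HIF subunit genes, Epas1 had separate groups, higher in Sora-treated tumors (10.6% of all genes), and Hif1a and Arnt did not. Epas1, which encodes HIF-2α, had 156, 187, and 161 CPM in control and 206, 195, and 209 CPM in Sora-treated tumors, with a log2 fold change of 0.28 ± 0.08 (SE, edgeR adjusted p = 0.10, DESeq2 adjusted p = 0.030). Hif1a had 210.1, 208, and 214 CPM in control and 221, 190.1, and 231 CPM in Sora-treated tumors, so that Sora-treated tumor 3 was the lowest of all and Sora-treated tumor 4 the highest (log2 fold change 0.02 ± 0.08 SE). Without Sora-treated tumor 4 the sign for Hif1a turned, to -0.04. Arnt had 89.3, 92.1, and 108 CPM in control and 92.8, 98.2, and 90.6 CPM in Sora-treated tumors and a log2 fold change of -0.04 ± 0.09 (SE). The hydroxylase genes are HIF targets themselves. Egln3 had 207, 254, and 232 CPM in control and 271, 279, and 329 CPM in Sora-treated tumors without overlap (log2 fold change 0.34 ± 0.10 SE, edgeR adjusted p = 0.092, the lowest among members not called). DESeq2 called Egln3 higher (adjusted p = 0.013), as it did 3.79% of all genes. Egln1 overlapped, with a log2 fold change of 0.13 ± 0.10 (SE).

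The 11 other HIF targets had the highest median log2 fold change of the 6 roles, 0.41, and all 11 were above 0 with all 6 tumors (49.9% of all genes). Ndrg1 and P4ha2 were called higher (2 of 11, against 1.94% of all genes), and with P4ha1 these made 3 of 11 that were separate and higher (10.6%). Ndrg1, a stress-induced gene often used as a sign of hypoxia, had the largest rise, from 463, 705, and 617 CPM in control to 897, 899, and 1133 CPM in Sora-treated tumors, which did not overlap. The log2 fold change was 0.71 ± 0.15 (SE, n = 3 against 3; edgeR adjusted p = 0.029), a fold of 1.64. Control tumor 1 was the lowest and Sora-treated tumor 4 the highest, and leaving out 1 tumor at a time gave log2 fold changes of 0.56 to 0.85, with edgeR adjusted p-values of 0.024 to 0.14. P4ha2 and P4ha1 encode alternative catalytic subunits of the enzyme that hydroxylates collagen prolines. P4ha2 had 83.1, 97.7, and 83.7 CPM in control and 121, 121, and 121 CPM in Sora-treated tumors, which were nearly level with each other. Its log2 fold change was 0.46 ± 0.08 (SE, n = 3 against 3; edgeR adjusted p = 0.019), and 0.42 to 0.54 with 1 tumor left out (edgeR adjusted p-values of 0.017 to 0.096). P4ha1 had 262, 287, and 272 CPM in control and 295, 301, and 319.7 CPM in Sora-treated tumors (log2 fold change 0.16 ± 0.07 SE, edgeR adjusted p = 0.31).

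The carbonic anhydrase genes Car9 and Car12, whose enzymes sit on the cell surface and help regulate pH, were the least precise. Car9 had 1.900, 3.01, and 2.303 CPM in control and 3.32, 4.65, and 2.51 CPM in Sora-treated tumors, and its log2 fold change was 0.54 ± 0.29 (SE, edgeR adjusted p = 0.38). Car12 had 8.85, 2.95, and 3.02 CPM in control and 9.88, 6.94, and 6.37 CPM in Sora-treated tumors, so control tumor 1 was above Sora-treated tumors 3 and 4 (log2 fold change 0.65 ± 0.38 SE, edgeR adjusted p = 0.43). The second-largest log2 fold change of the 40 genes was thus not called, and it was called when control tumor 1 was left out (log2 fold change 1.37, edgeR adjusted p = 0.034). Skin markers varied between tumors alongside it, with a summed level of 1230 CPM in control tumor 1, 401 and 480 CPM in the other controls, and 791 to 1117 CPM in Sora-treated tumors, and their part in the Car12 values was not tested. Bnip3 and Bnip3l (mitophagy receptors), Adm (adrenomedullin), Ddit4 (an inhibitor of mTORC1), Ankrd37, and Kdm3a (a histone demethylase) had overlapping groups and log2 fold changes of 0.11 (Bnip3l) to 0.42 (Ddit4). Of these, DESeq2 called only Bnip3 higher (adjusted p = 0.022, edgeR adjusted p = 0.15), as it did 3.79% of all genes.

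Levels can be set between genes only per length, as FPKM. On that scale the mean over the control tumors was 721 ± 84.9 FPKM for Tpi1 (triosephosphate isomerase) and 614 ± 68.6 FPKM for Pgk1, against 1.09 ± 0.227 FPKM for Car9 and 0.883 ± 0.625 FPKM for Car12, and those pairs are far apart. The lengths in the table for Pkm and Ldha were over 2 times their longest coding transcript in GENCODE M21, so their FPKM are low relative to the other genes. With these lengths and with the uncertain counts of Eno1, Gapdh, and Aldoa, no full order of the genes is given. Shares of the summed FPKM of related members describe the balance between those members alone, and relatives outside the 40 genes are not in the sums. Hk1 made up 49.8 ± 0.9705% of the FPKM of Hk1 and Hk2 in control and 53.4 ± 0.662% in Sora-treated tumors (mean ± SD, n = 3). Hk3, a hexokinase gene outside the 40, had 20.4 ± 3.68 FPKM in control, against 32.3 ± 1.47 FPKM for Hk1 and 32.6 ± 2.67 FPKM for Hk2, so the share is not one of all hexokinase RNA. Slc2a1 made up 94.3 ± 0.474% and 95.3 ± 0.177% of Slc2a1 and Slc2a3. P4ha2 made up 36.04 ± 1.19% and 41.01 ± 1.02% of P4ha1 and P4ha2. In these 3 pairs no Sora-treated tumor overlapped the controls. The same held for Epas1 among the alpha subunit genes (42.1 ± 2.54% in control and 46.6 ± 1.65% in Sora-treated tumors), for Bnip3 over Bnip3l (81.7 ± 2.23% and 84.8 ± 0.773%), and for Aldoa over Aldoc (43.5 ± 2.05% and 47.9 ± 0.306%), where the Aldoa counts are uncertain. Hif1a stayed the more abundant of the alpha subunit genes in every tumor. In the phosphofructokinase, PFKFB, enolase, lactate dehydrogenase, lactate transporter, carbonic anhydrase, and EGLN families the shares of the groups overlapped. Ldha made up 98.4 ± 0.562% of Ldha and Ldhb in control and 98.5 ± 0.329% in Sora-treated tumors. These shares are descriptions, no test was run on them, and separate shares were not counted over all genes.

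**Figure D4:**
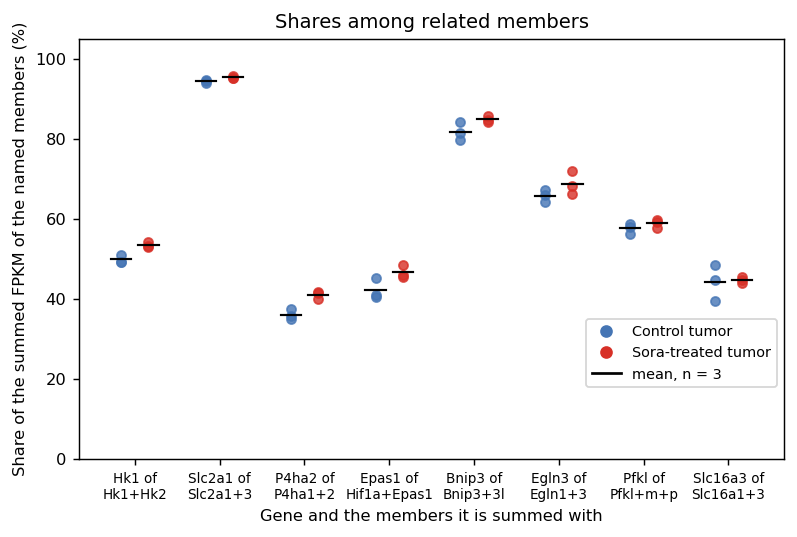
Share of the summed FPKM of related members (y axis, %) held by 1 named gene in each control (blue) and Sora-treated (red) tumor, with the mean (n = 3) as a line. The Hk1, Slc2a1, P4ha2, Epas1, and Bnip3 shares are higher in every Sora-treated tumor, by 1.02 (Slc2a1) to 4.97 (P4ha2) percentage points of the mean, and the Egln3, Pfkl, and Slc16a3 shares overlap. For Bnip3 and Epas1 the highest control and the lowest Sora-treated tumor are almost level.

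HIF targets outside the 40 genes were described from a second list. All 25 were tested, 5 rose, and 0 fell, where 1.94% and 1.34% of all genes were called higher and lower. The log2 fold change was above 0 for 18 and below 0 for 7, with a median of 0.20. The groups did not overlap in 12 that were higher and in 1 (Cxcr4) that was lower (10.6% and 11.6% of all genes). Vegfa, the gene of the main angiogenic growth factor and the ligand of a receptor that Sora blocks, rose most, from 202, 271, and 255 CPM in control to 366, 394, and 400.0 CPM in Sora-treated tumors (log2 fold change 0.67 ± 0.11 SE, edgeR adjusted p = 0.013). It lost the call in 1 of the 6 fits that left out a tumor, the one without Sora-treated tumor 4, where the edgeR adjusted p was 0.082. The 4 other genes that rose were Ero1a, of oxidative protein folding (log2 fold change 0.47 ± 0.08 SE), Mxi1, a repressor of MYC targets (0.45 ± 0.10), Jmjd6 (0.33 ± 0.07), and Wsb1, a ubiquitin ligase substrate receptor (0.32 ± 0.07). Their edgeR adjusted p-values ran from 0.017 to 0.042, and without Sora-treated tumor 4 from 0.096 to 0.17.

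Of 14 genes that regulate HIF or pair with it, 13 were tested, and 1 was called higher and 1 lower (1.94% and 1.34% of all genes). Cited2, whose protein competes with HIF for the coactivators CBP and p300, rose from 147, 170.4, and 141 CPM in control to 244, 246, and 298 CPM in Sora-treated tumors (log2 fold change 0.78 ± 0.10 SE, edgeR adjusted p = 0.0085). Arnt2, a relative of Arnt, fell from 56.1, 51.95, and 70.9 CPM to 37.3, 43.1, and 35.5 CPM (log2 fold change -0.63 ± 0.12 SE, edgeR adjusted p = 0.022). Neither pair of groups overlapped, and without Sora-treated tumor 4 the edgeR adjusted p was 0.054 for Cited2 and 0.13 for Arnt2. Vhl and the other genes of its complex, Elob, Eloc, Cul2, and Rbx1, were not called, with log2 fold changes of -0.15 (Cul2) to 0.09 (Elob).

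Of 13 further glycolysis genes, among them tissue forms of the enzymes and transporters, 12 were tested, and their median log2 fold change was 0.0023. By edgeR 0 were called (1.94% of all genes higher and 1.34% lower), with 2 higher and 1 lower at an unadjusted p under 0.05 (8.53% and 8.69%). Slc2a4, the gene of the insulin-regulated glucose transporter GLUT4, had the smallest p of those that were higher, with 1.31, 2.33, and 1.86 CPM in control and 2.37, 4.29, and 3.17 CPM in Sora-treated tumors (log2 fold change 0.83 ± 0.31 SE, edgeR adjusted p = 0.19). Slc16a7, the gene of the monocarboxylate transporter MCT2, had the smallest p of those that were lower, with 3.396, 2.49, and 3.76 CPM in control and 2.21, 1.73, and 1.72 CPM in Sora-treated tumors (log2 fold change -0.77 ± 0.26 SE, edgeR adjusted p = 0.15). Neither pair of groups overlapped. DESeq2 also called 0 of the 12 (3.79% of all genes higher and 3.49% lower). Among 17 genes of gluconeogenesis and glycogen, 13 were tested, and the median log2 fold change was 0.16. Ugp2, whose enzyme makes the UDP-glucose used for glycogen, fell from 576, 588, and 558 CPM to 369, 481, and 395 CPM (log2 fold change -0.47 ± 0.10 SE, edgeR adjusted p = 0.033, and 0.16 without Sora-treated tumor 4), and 0 rose (1.34% of all genes were called lower and 1.94% higher).

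**Figure D5:**
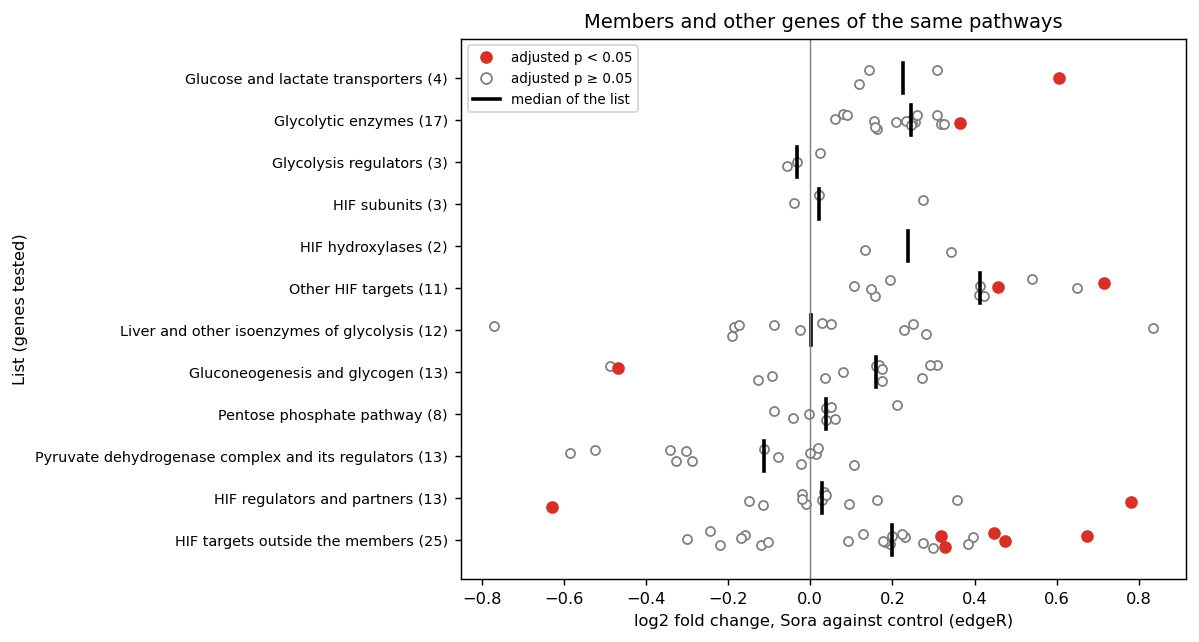
Log2 fold change in edgeR (x axis, Sora-treated against control) of each gene in the 6 roles and in 6 further lists (y axis, genes tested in brackets), with filled points for an adjusted p under 0.05 and a bar at the median. The highest medians are those of the other HIF targets (0.41), enzymes (0.25), HIF hydroxylases (0.24), transporters (0.23), HIF targets outside the members (0.20), and gluconeogenesis and glycogen (0.16). Those of the pyruvate dehydrogenase list (-0.11) and the regulators of glycolysis (-0.03) lie below 0, and the remaining medians are 0.0023 to 0.04.

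The RNA came from whole tumors, in which fewer cells of a type and less RNA per cell cannot be told apart, and the levels of several cell type markers moved with treatment. The summed level of 10 fibroblast markers was 7671 to 7934 CPM in control and 5431 to 6836 CPM in Sora-treated tumors, with 1 of 10 (Mfap5) called lower (1.34% of all genes). The same direction without overlap was seen for 11 macrophage markers (1928 to 2265 against 1620 to 1871 CPM, Mertk called lower), for 10 T cell markers (218 to 253 against 178 to 195 CPM, Cd6 called lower), and for 8 red blood cell markers (47.1 to 129 against 33.0 to 44.3 CPM, 5 tested and Hba-a1, which has a near-identical copy, called lower). Hepatoma markers overlapped in sum (6363 to 8203 against 6738 to 7378 CPM). Of the 12, Alb and Ttr fell while Apoa1 and Hnf4a rose (1.34% and 1.94% of all genes). The log2 fold changes of the 12 ran from -2.15 to 1.03, so the overlap in sum does not mean that each was stable. Afp, 1 of the 12, was present at 655 CPM or more in every tumor. Endothelial markers overlapped between groups in sum (11 markers, 347 to 389 against 275 to 376 CPM). Of these 11, 8 had a log2 fold change below 0 and 3 above (49.9% of all genes were above 0), with a median of -0.19. By edgeR 0 of them were called (1.94% of all genes higher and 1.34% lower). Skeletal muscle markers overlapped as well (13 markers, 203 to 278 against 231 to 321 CPM), with 12 of 13 log2 fold changes above 0 (49.9% of all genes) and a median of 0.17. Their sum was highest in Sora-treated tumor 3, as were Pfkm and Slc2a4. All 10 skin markers were above 0 with a median of 0.45, and their sums overlapped. So did those of 10 neutrophil markers (298 to 369 against 318 to 376 CPM), but of the 9 tested, 8 had a log2 fold change above 0 with a median of 0.65. In 3 of the 9 the groups were separate and higher (10.6% of all genes), 5 were higher at an unadjusted p under 0.05 (8.53%), and S100a9 was called higher by edgeR (1.94%). No marker of the 9 lists was at 0 in every tumor. What part these marker levels had in the changes of the glycolysis and HIF target genes was not tested.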

How the data were processed

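RNA-seq libraries of 3 control and 3 Sora-treated tumors were analyzed. The authors deposited raw read counts per gene and FPKM, which in the values equal the count divided by 1 length per gene and by the library total. The study's text names Bowtie2 and GRCm38, whereas the submitters' processing notes name fastp, HISAT2, HTSeq, DESeq2, R 3.2.0, and GRCm39, so the build is unsettled. The annotation and the use of strand are not given in the sources used here. The count table held 5 tumors, and for Sora-treated tumor 4 they were worked back from FPKM, gene lengths, and the library total. Treating each of the other 5 tumors as unknown returned 100% of the counts reached.

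The main test, for genes that reached 10 counts in 3 or more tumors, was the quasi-likelihood test of edgeR 4.0.16 with TMM factors, run in R 4.3.3. Its p-values were adjusted over all 16513 genes by the Benjamini-Hochberg method, with a threshold of 0.05. The code was tested on simulated data. Two-sided exact permutation of 3 against 3 tumors cannot give a p below 0.1, so no such test was used. The alternatives were DESeq2 1.42.0, its size factors, limma 3.58.1 (voom, and log2(FPKM + 1) or log2(FPKM + 0.1)), other scalings and filters, a replicate block, and leaving out each tumor. The members and all lists were chosen with earlier results of these data known. Values in every tumor are given for each member that was called or whose groups did not overlap, for the 3 largest rises and the 3 lowest fold changes, and for Slc2a1, Hk2, Ldha, Pgk1, Car9, Slc16a3, Hif1a, and Epas1. From the pathway lists, genes with an adjusted p under 0.05 are named and, where a list had none, the gene with the smallest p in each direction. From the cell type marker lists, only genes with an adjusted p under 0.05 and Afp are named. Some genes of the 2 lists of further glycolysis genes and HIF targets are not reported here and were left out of the counts of those lists. Other list genes were named after their values were seen. RefSeq promoter sequences (GRCm38.p6) were matched by symbol, and GENCODE M21 gave transcript lengths. With 31073830 or more reads per tumor, members had at least 61 reads in each tumor, and intervals from counting were not needed.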

Additional observations from a re-analysis of the deposited data

How the results depend on the processing

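Against 4 members called higher (1.94% of all genes), DESeq2 called 9 (3.79%), edgeR without a filter 7 (2.26%), limma on log2(FPKM + 1) 2 (1.11%), limma on log2(FPKM + 0.1) 0 (0.171%), and an unadjusted p 16 (8.53%). Limma on log2(FPKM + 1) of all genes called 0 members and 0 genes in all, so it says nothing about the members. Voom, DESeq2 size factors, total counts, upper quartile scaling, a minimum of 50 counts on average, and robust=TRUE each called 4 (1.79% to 2.47%). The cause of the differences between tools was not tested. Leaving out 1 tumor at a time gave 0 to 7 members called higher, 0 called lower, a median log2 fold change of 0.17 to 0.30, 16 to 26 members with separate groups that were higher, and 0 to 1 lower. Of all genes, 13.5% to 19.2% were separate and higher in these fits, and 14.8% to 20.8% separate and lower. Signs turned for 5 members, whose log2 fold changes ranged from -0.044 to 0.18 (Aldoc), -0.20 to 0.12 (Pfkfb4), -0.056 to 0.093 (Pdk1), -0.036 to 0.098 (Hif1a), and -0.090 to 0.049 (Arnt). No sign turned under another scaling, where 37 of 40 stayed above 0. Only numbers 3 and 4 occur in both groups, and tumors that share them did not deviate together (correlations of deviations -0.03 and -0.07), so the numbers were not taken as pairs. With a replicate block, 0 members were called (0.484% of all genes were higher), 35 of 40 were above 0, and Gapdh and Hif1a turned to -0.014 and -0.0097.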

Other observations

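Pyruvate that is not turned into lactate enters the mitochondrion through a carrier (Mpc1 and Mpc2) and is oxidized by the pyruvate dehydrogenase complex, which kinases (Pdk genes) turn off and phosphatases (Pdp genes) turn on. Of 13 such genes, all tested, 0 were called by edgeR (6 lower and 0 higher at an unadjusted p under 0.05, against 8.69% and 8.53% of all genes), 10 had a log2 fold change below 0, and the median was -0.11. In 7 of the 13 all Sora-treated tumors lay below all control tumors, against 11.6% of all genes, and in 0 they lay above. The 7 were Pdha1, Pdk2, Pdk4, Pdp1, Pdp2, Pdpr, and Mpc1, so that kinases and the phosphatases that oppose them were both among them. Pdk4 had the smallest p of those that were lower, with 28.1, 34.5, and 30.5 CPM in control and 16.2, 24.96, and 20.9 CPM in Sora-treated tumors (log2 fold change -0.58 ± 0.14 SE, edgeR adjusted p = 0.053). Pdp1 had a log2 fold change of -0.33 ± 0.09 (SE, edgeR adjusted p = 0.066). Without Sora-treated tumor 4 the edgeR adjusted p was 0.19 for Pdk4 and 0.12 for Pdp1. With all 6 tumors DESeq2 called both Pdk4 and Pdp1 lower, with adjusted p-values of 0.0030 for Pdk4 and 0.037 for Pdp1, and no other gene of this list (3.49% of all genes were called lower by DESeq2). Dlat, a core subunit gene of the complex, had the smallest p of those that were higher, with a log2 fold change of 0.11 ± 0.08 (SE, edgeR adjusted p = 0.57). The lower values of Pdk2 and Pdk4 stand beside Pdk1, where the groups overlapped (107, 123, and 132 CPM in control and 113, 133, and 123 CPM in Sora-treated tumors).

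The pentose phosphate pathway branches from glycolysis and supplies NADPH and ribose. All 8 of its genes overlapped between groups (10.6% of all genes were separate and higher and 11.6% separate and lower), 0 were called by edgeR or DESeq2 (1.94% and 3.79% of all genes higher, 1.34% and 3.49% lower), and the median log2 fold change was 0.04. The smallest p was that of Rpia among genes that were higher (log2 fold change 0.21 ± 0.10 SE, edgeR adjusted p = 0.30) and that of Pgls among those that were lower (-0.09 ± 0.08 SE, edgeR adjusted p = 0.66). At an unadjusted p under 0.05, 0 of the 8 were higher and 0 lower (8.53% and 8.69% of all genes).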
